A study of Mus musculus with 15 samples.

Results

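The mitochondrial ribosomal protein genes are the protein-coding mouse genes whose symbol begins with Mrpl or Mrps followed by a digit. There were 78 of them among 21887 protein-coding genes, 51 counted with the large subunit and 27 with the small subunit. Mrps36 was counted with the small subunit and the mitochondria-specific proteins by its symbol only. They were described by the ATAC-seq peaks near their gene ends in haematopoietic stem cells (HSC) of 3 genotypes. ATAC-seq marks accessible DNA by the cuts of a transposase.

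Mitochondria carry their own ribosome, which translates the few respiratory chain proteins encoded in mitochondrial DNA. Its RNAs come from the mitochondrial genome, but all its proteins are encoded in the nucleus, made in the cytosol and imported. Part of these proteins descend from the bacterial ribosome and part were added in mitochondria. The kinase mTOR is known to promote the translation of many nuclear-encoded mitochondrial mRNAs, and HSC are known for low mitochondrial activity at rest.

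Each ATAC-seq library came from 50000 sorted HSC of adult mice given poly(I:C), with the transposase reaction run for 30 min at 37 °C. KO cells were Mx1-Cre+/-;mTORflox/flox, KI cells were Mx1-Cre+/-;mTORflox/knockin and WT control cells were Mx1-Cre-/-;mTORflox/flox. All 3 genotypes thus carried a floxed Mtor allele and poly(I:C), and KO and KI also carried Cre, so that an effect of Cre and one of the Mtor alleles cannot be told apart in comparisons with WT. Cre under the Mx1 promoter is induced by interferon and acts in many cell types beside HSC. The labels do not give the change in the knock-in allele, or how many animals gave the cells of a library. The WT and KO libraries are marked as re-analysed and the KI library is not, so batch and KI genotype cannot be told apart. With 1 library per genotype there was no replicate error and no test, and every difference below is one between libraries. The series holds 12 further RNA-seq samples, which were not analysed here.

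The lists held 19189 peaks in KO, 28391 in KI and 17316 in WT, and their read depth is unknown. The start of Mtor itself had no peak in KO, one at percentile 82.1 in KI and one at percentile 96.7 in WT, where the percentile is the share of peaks in the same list with a lower score. Of 12 HSC markers, 4 had a gene-end peak in KO (33.3%), 6 in KI (50%) and 7 in WT (58.3%). Kit, Mecom, Hlf and Meis1 had one in all 3 lists, whereas Ly6a, Slamf1, Gata2, Tek and Fgd5 had none in any. Of 28 markers of other blood and stromal lineages, 7 had one in KO (25%), 15 in KI (53.6%) and 3 in WT (10.7%). The shares over all protein-coding genes were 44.1% in KO, 51.4% in KI and 44.2% in WT. Markers of other lineages thus had a peak most often in KI, the longest list, and HSC markers in WT, the shortest. The part of other cell types in the results below was not tested. List length was taken up by recounting with the 17316 highest-scoring peaks of each list, and those counts stand beside the results they bear on.

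A peak was assigned to a gene, and called a gene-end peak, when it came within 1000 bp of one of the gene's outermost mm10 coordinates. Before the values, the promoters are shown for the 6 members that had such a peak in exactly 2 of the 3 lists, with Mrpl17, whose WT peak had the highest score among the members, beside them. Each run covers the 250 bases before and the 50 bases from the annotated start, 5′ to 3′ in the direction of the gene, from RefSeq, GRCm38.p6. Capitals mark matches, on either strand, to the ETS family core CCGGAAG and the CCAAT box CCAATC, the only ones of 5 motifs searched that these 7 promoters hold.
Mrpl28 (chr17:26123253-26123552, plus strand): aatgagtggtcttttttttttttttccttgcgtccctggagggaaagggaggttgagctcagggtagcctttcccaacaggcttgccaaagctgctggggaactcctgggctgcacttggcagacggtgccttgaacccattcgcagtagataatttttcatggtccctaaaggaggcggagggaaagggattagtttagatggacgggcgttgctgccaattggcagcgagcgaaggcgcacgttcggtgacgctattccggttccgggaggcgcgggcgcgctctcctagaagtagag
Mrps31 (chr8:22411090-22411389, plus strand): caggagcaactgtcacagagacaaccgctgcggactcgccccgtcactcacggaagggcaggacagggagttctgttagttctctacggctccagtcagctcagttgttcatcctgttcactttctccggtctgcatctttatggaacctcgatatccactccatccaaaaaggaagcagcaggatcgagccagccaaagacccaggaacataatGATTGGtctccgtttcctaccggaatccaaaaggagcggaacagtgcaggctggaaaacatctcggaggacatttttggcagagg
Mrpl33 (chr5:31613701-31614000, plus strand): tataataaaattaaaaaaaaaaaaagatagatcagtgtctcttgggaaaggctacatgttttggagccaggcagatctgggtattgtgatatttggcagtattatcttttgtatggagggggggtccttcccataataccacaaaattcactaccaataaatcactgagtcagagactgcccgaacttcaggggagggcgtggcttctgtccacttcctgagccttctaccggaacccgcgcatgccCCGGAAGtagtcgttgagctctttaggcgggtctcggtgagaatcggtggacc
Mrpl43 (chr19:45006393-45006692, minus strand): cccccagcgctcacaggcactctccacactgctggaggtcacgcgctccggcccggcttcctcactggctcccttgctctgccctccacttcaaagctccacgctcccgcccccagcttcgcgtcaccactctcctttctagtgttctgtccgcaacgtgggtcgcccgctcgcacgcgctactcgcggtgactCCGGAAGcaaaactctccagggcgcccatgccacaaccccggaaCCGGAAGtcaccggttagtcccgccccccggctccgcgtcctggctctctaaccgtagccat
Mrpl52 (chr14:54426659-54426958, plus strand): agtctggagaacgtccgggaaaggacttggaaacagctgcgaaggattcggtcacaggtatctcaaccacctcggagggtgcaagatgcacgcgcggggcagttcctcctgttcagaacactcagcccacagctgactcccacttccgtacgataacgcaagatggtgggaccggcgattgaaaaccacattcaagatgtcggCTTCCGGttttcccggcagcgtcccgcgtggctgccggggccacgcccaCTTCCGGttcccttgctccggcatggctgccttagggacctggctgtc
Mrps10 (chr17:47368947-47369246, plus strand): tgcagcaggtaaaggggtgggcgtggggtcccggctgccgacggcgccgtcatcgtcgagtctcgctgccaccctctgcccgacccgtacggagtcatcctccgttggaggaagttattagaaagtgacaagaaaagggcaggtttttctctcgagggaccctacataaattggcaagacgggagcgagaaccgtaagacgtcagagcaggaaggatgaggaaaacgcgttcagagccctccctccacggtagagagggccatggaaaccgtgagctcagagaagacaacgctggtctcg
Mrpl17 (chr7:105811038-105811337, minus strand): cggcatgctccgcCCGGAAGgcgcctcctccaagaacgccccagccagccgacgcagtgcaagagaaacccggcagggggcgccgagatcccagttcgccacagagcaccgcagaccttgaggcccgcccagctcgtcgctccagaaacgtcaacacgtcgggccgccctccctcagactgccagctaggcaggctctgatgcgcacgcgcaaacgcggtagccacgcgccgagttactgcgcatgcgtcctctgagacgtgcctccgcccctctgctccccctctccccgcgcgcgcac
The first 2 sequences, of Mrpl28 and Mrps31, lay wholly or partly under a KI and a WT peak and under no KO peak. The next 4, of Mrpl33, Mrpl43, Mrpl52 and Mrps10, lay wholly or partly under KO and KI peaks and under no WT peak. The Mrpl17 promoter lay wholly under a peak of each list.

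A gene-end peak was present at most mitochondrial ribosomal protein genes in each list. In KO 63 of 78 had one (80.8%, Wilson 95% interval 70.7 to 88.0), in KI 70 (89.7%, 81.0 to 94.7) and in WT 61 (78.2%, 67.8 to 85.9). Over all protein-coding genes the shares were 44.1% in KO, 51.4% in KI and 44.2% in WT. A peak in all 3 lists was found at 59 members (75.6%), against 39.2% of all protein-coding genes. A peak in 1 or 2 lists only was found at 11 members, against 14.7% of all protein-coding genes, and no gene-end peak at 8, against 46.1%. The intervals cover counting over genes and no other error. With lists of equal size the members with a peak numbered 62 in KO, 65 in KI and 61 in WT, against 42.3% in KO, 44.8% in KI and 44.2% in WT of all protein-coding genes. Among peaks with a score of at least 100 they numbered 41 in KO, 62 in KI and 43 in WT, against 29.3% in KO, 40.7% in KI and 30.2% in WT.

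**Figure D1:**
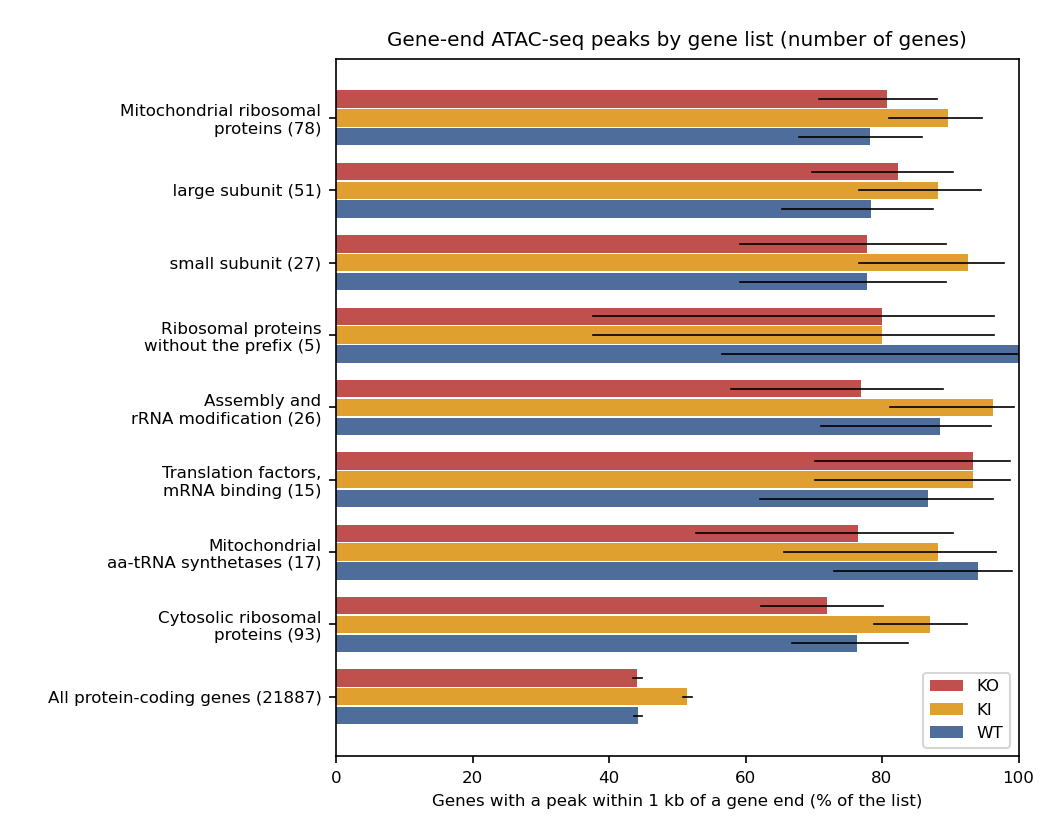
Share of genes (x axis, percent of the list) with a peak within 1 kb of a gene end in KO, KI and WT, for the mitochondrial ribosomal protein genes, lists of the same pathway, cytosolic ribosomal proteins and all protein-coding genes, with Wilson 95% intervals as lines. All lists of mitochondrial translation lie above the 44.1% to 51.4% of all protein-coding genes.

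By role, 42 of the 51 large-subunit genes had a peak in KO (82.4%), 45 in KI (88.2%) and 40 in WT (78.4%). Of the 27 small-subunit genes, 21 had one in KO (77.8%), 25 in KI (92.6%) and 21 in WT (77.8%). The intervals of the subunits overlap in every list. Proteins with a bacterial counterpart numbered 48, with a peak at 38 in KO, 42 in KI and 37 in WT, and the 30 mitochondria-specific proteins had a peak at 25 in KO, 28 in KI and 24 in WT. The within-list percentile of the members' highest-scoring peak had a median of 67.8 in KO, 77.6 in KI and 68.2 in WT. The same median over all protein-coding genes with a peak was 72.0 in KO, 78.2 in KI and 69.5 in WT. In each list the members' median lay below that of all protein-coding genes with a peak, but its interval held that value. These binomial order-statistic intervals ran from 62.5 to 75.5 in KO, 71.6 to 83.0 in KI and 60.9 to 78.1 in WT. The cytosolic ribosomal protein genes described below had medians of 70.6 in KO, 75.4 in KI and 65.0 in WT. Their medians also lay below those of all protein-coding genes with a peak. Small-subunit genes had a median percentile of 72.9 in KO, 79.2 in KI and 79 in WT, and large-subunit genes one of 66.5 in KO, 75.9 in KI and 62.5 in WT. The quartiles did not keep that order in KI, where the middle 50% of small-subunit genes ran from 59.6 to 86.8 and that of large-subunit genes from 65.8 to 92.2.

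**Figure D2:**
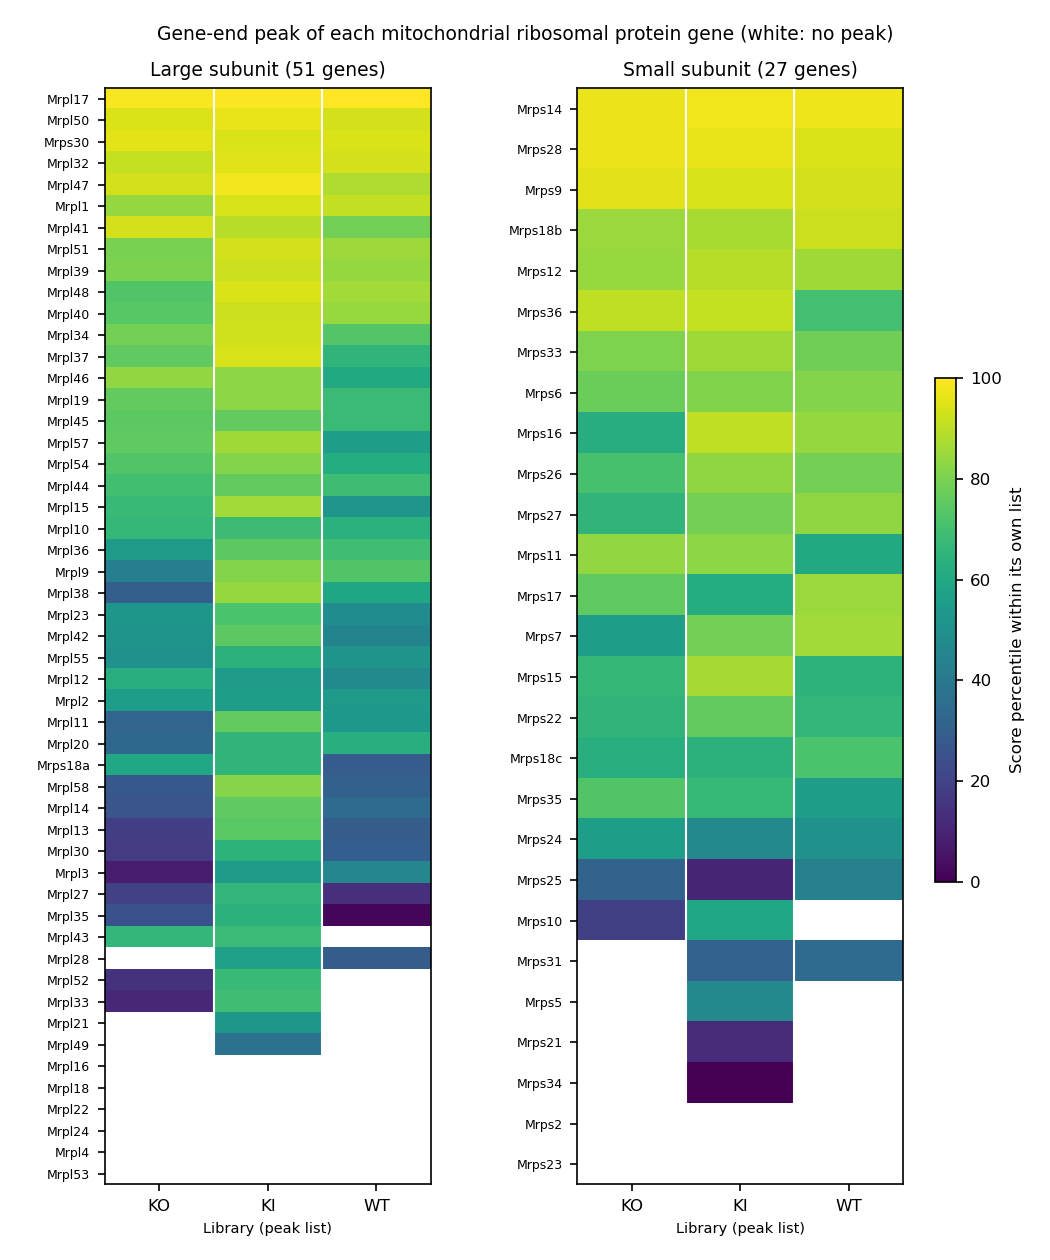
Score percentile, within its own list, of the highest-scoring gene-end peak of each of the 51 large-subunit and 27 small-subunit genes (rows) in KO, KI and WT (columns), with white for no peak. Mrpl17 and Mrps14 stand at the top of their panels in all 3 lists, and 11 genes have a white cell in 1 or 2 columns. Percentiles describe a peak's place in its own list and are not changes between lists.

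The 5 members with the highest WT percentile were genes of both subunits. Mrpl17, a bacterial-type protein of the large subunit, stood at percentile 98.8 in KO, 99.6 in KI and 99.6 in WT, with peaks 884 bp wide in KO, 982 bp in KI and 1178 bp in WT. Mrps14, a bacterial-type protein of the small subunit, stood at 97.1 in KO, 97.7 in KI and 97.5 in WT. Mrps28, a small-subunit protein with a bacterial counterpart, stood at 96.9 in KO, 96.8 in KI and 94.5 in WT. Mrps30, which sits in the large subunit in spite of its name, stood at 95.7 in KO, 94.2 in KI and 94.4 in WT. Mrpl50, specific to mitochondria, stood at 94.6 in KO, 96.7 in KI and 93.3 in WT. These 5 genes were near the top of each list. In KI, Mrpl47, a bacterial-type protein of the large subunit named here after its values were seen, stood at 98.1, above 4 of them, with 93 in KO and 88.2 in WT.

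At the other end, Mrpl35 stood at 25.2 in KO, 64.3 in KI and 1.59 in WT, the lowest WT value among the members open in all 3 lists. Its WT score was 50.97, near the lowest score in that list. Mrpl27 stood at 19.3 in KO, 65.8 in KI and 13.8 in WT. Mrps18a, one of the S-named proteins of the large subunit, stood at 59.7 in KO, 65.5 in KI and 28.9 in WT. Mrpl13 stood at 18.2 in KO, 74.6 in KI and 29.6 in WT, and Mrpl30 at 17.5 in KO, 64.7 in KI and 29.8 in WT. All 5 are bacterial-type proteins. Their percentiles were higher in KI than in WT, but they were picked for low WT values. The median over all protein-coding genes with a peak was also higher in KI, at 78.2 against 69.5 in WT.

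The series concerns a role of mTOR that does not need its kinase activity, and the comparison of KO with WT sets loss of mTOR against its presence. Of the 61 members with a WT gene-end peak, 2 had none in KO (3.28%, 0.904 to 11.2), where 10.5% of all protein-coding genes with a WT peak had none. The interval of the members' share held that of all genes. The 2 members were Mrpl28, a bacterial-type protein of the large subunit, and Mrps31, a mitochondria-specific protein of the small subunit. Among peaks with a score of at least 100, KO lacked 6 of 43 WT peaks (14%, 6.56 to 27.3), against 16.4% of all protein-coding genes. Here too the interval held the share of all genes. Those 6 were Mrpl2, Mrpl9, Mrpl20, Mrpl36, Mrpl38 and Mrps7, each with a KO gene-end peak that scored below 100. At Mrpl2 the WT peak, with a score of 101.32, lay at the 3′ end, where KO had none. The KO peak at the Mrpl2 start scored 96.07, above the 69.62 of the WT peak there. In the opposite direction, 4 of the 17 members without a WT peak had one in KO (23.5%, 9.56 to 47.3), against 8.21% of all protein-coding genes without a WT peak. These 4 were Mrpl33, Mrpl43, Mrpl52 and Mrps10, and each of them also had a peak in KI. Among peaks with a score of at least 100, 4 of 35 members without a WT peak had one in KO, against 5.82%. Among all protein-coding genes the genes without a WT peak include the many with no peak in any list.

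At Mrpl28 the nearest KO peak lay 9801 bp from the start, whereas KI had one of 513 bp at percentile 57.2 and WT one of 369 bp at percentile 29.4. At Mrps31 the nearest KO peak lay 5220 bp from the start, while KI had a peak of 363 bp at percentile 31.6 and WT one of 541 bp at percentile 35. Both WT peaks ranked in the lower part of their list.

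At Mrpl43, a mitochondria-specific protein of the large subunit, KO had a peak of 620 bp at percentile 66.2 and KI one of 758 bp at percentile 68.4, and the nearest WT peak lay 40880 bp from the start. Its promoter, printed above with 2 ETS cores, was covered over all 300 bases in KO and KI and over 0 in WT. The start of Twnk, which encodes the mitochondrial DNA helicase Twinkle, lies 116 bp away on the other strand, so that this peak cannot be assigned to 1 gene. Mrpl43 was the only one of the 11 members with a peak in 1 or 2 lists whose pattern was the same among peaks with a score of at least 100.

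Mrpl33, which keeps the name of a bacterial ribosomal protein, had a KO peak of 382 bp at percentile 11.4 and a KI peak of 614 bp at percentile 69.5, with the nearest WT peak 42187 bp away. Mrps10, a bacterial-type protein of the small subunit, had a KO peak of 258 bp at percentile 19 and a KI peak of 502 bp at percentile 59.6, both ending short of the start, by 62 bp in KO and 126 bp in KI. Mrpl52, specific to mitochondria, had KO peaks of 287 bp and 566 bp at percentiles 14.6 and 3.49, of which the second covered the start, and a KI peak of 851 bp at percentile 67.3. In these 3 genes no KO peak stood above percentile 19, and all 4 genes with a KO peak and no WT peak had a higher percentile in KI than in KO. At equal list size KO still had a peak at 4 of 17 members without a WT peak, against 6.67% of all protein-coding genes, and lacked 3 of 61 WT peaks, against 12.7%.

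The comparison of KI with WT sets the knock-in allele against WT. All 61 members with a WT gene-end peak had one in KI, so 0 of 61 were absent (upper bound 5.92%), against 3.29% of all protein-coding genes with a WT peak. The share of all genes lay within the interval of the members' share. Of the 17 members without a WT peak, 9 had one in KI (52.9%, 31.0 to 73.8), against 15.5% of all protein-coding genes without one. They were the 4 genes that KO had too, and Mrpl21, Mrpl49, Mrps5, Mrps21 and Mrps34. With lists of equal size, 6 of 17 had a KI peak without a WT peak, against 7.77% of all protein-coding genes, and 2 of 61 a WT peak without a KI peak, against 8.44%. Among peaks with a score of at least 100, 19 of 35 members without a WT peak had one in KI (54.3%, 38.2 to 69.5), against 16.2%, and KI lacked 0 of 43 WT peaks, against 2.89%. Both comparisons use the same WT list.

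The 5 members with a peak in KI alone ranked in the middle or at the bottom of that list. Mrpl21, a bacterial-type protein, had a peak of 563 bp at percentile 53.1 over the start it shares with the helicase gene Ighmbp2, whose start lies 32 bp away. Mrps5, a bacterial-type protein of the small subunit, had one of 356 bp at percentile 46.9, while KO and WT had a peak 2560 and 2607 bp from its start. Mrpl49, specific to mitochondria, had one of 470 bp at percentile 37.3, and its start lies 192 bp from that of Fau, the gene of a cytosolic small-subunit protein. Mrps21, a bacterial-type protein of the small subunit, had a peak of 254 bp at percentile 12.1 at its 3′ end and none at its start. The Mrps34 peak, 397 bp wide, stood at percentile 0.222 with a score of 50.13, and ends of Eme2 and Nme3 lie within 1 kb of that gene.

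KO and KI were also set against each other. Of the 70 members with a KI peak, 7 had none in KO (10%, 4.93 to 19.2), against 16.9% of all protein-coding genes with a KI peak. The interval held the share of all genes. The 7 members were the 5 open in KI alone, with Mrpl28 and Mrps31. None of the 8 members without a KI peak had one in KO (upper bound 32.4%), where 2.95% of all protein-coding genes without one did. At equal list size KO lacked 4 of 65 KI peaks, against 12.3%, and 1 of 13 members without a KI peak had one in KO, against 5.46%. Among peaks with a score of at least 100, KO lacked 21 of 62 KI peaks (33.9%, 23.3 to 46.3), against 29.6% of all protein-coding genes, so the count moved in opposite directions under these settings. None of the 16 members without such a KI peak had one in KO, against 1.19%. None of the 11 members with a peak in 1 or 2 lists reached the top 25% of a list. Their highest percentile was 66.2 in KO, 69.5 in KI and 35 in WT. The median of the 59 members open in all 3 lists was 70.9 in KO, 81.8 in KI and 68.3 in WT. No such values over all protein-coding genes with a peak in 1 or 2 lists are set beside these, so they describe no trait particular to the members.

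Nearly all members' peaks lay at starts. The RefSeq promoter table gave the start and strand of 69 of the 78 members. Not matched were Mrpl4, Mrpl13, Mrpl15, Mrpl19, Mrpl38, Mrpl54, Mrps28, Mrps34 and Mrps35. Of the matched members with a gene-end peak, 56 of 56 in KO, 61 of 62 in KI and 53 of 54 in WT had one within 1 kb of an annotated start, against 93.1% in KO, 92.8% in KI and 93.2% in WT of all genes in the table with a gene-end peak. The exceptions were Mrps21 in KI and Mrpl58 in WT. The centre of the peak lay a median of 67.0 bp before the start in KO (-67.0 bp), at -37.3 bp in KI and at -47.3 bp in WT.

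Peaks at annotated starts gave another account of the genes without a gene-end peak. Of the 8 such members, 5 had an annotated start more than 1 kb inside the outermost gene end, and all 5 had a start peak in at least 1 list. Mrpl18, a bacterial-type protein whose start lies 1696 bp inside, had a peak over its start at percentile 99.4 in KO, 97.4 in KI and 98.7 in WT, among the strongest of each list. Mrpl24, with a start 1413 bp inside, had one at percentile 39.8 in KO, 35.1 in KI and 29.1 in WT. Mrps23, specific to mitochondria and with a start 10282 bp inside, had one at percentile 34.6 in KO, 77.5 in KI and 33.8 in WT. Mrpl22 and Mrps2, both bacterial-type proteins, had a start peak in KI alone, at percentiles 16.3 and 35.8. Mrpl4, which the table does not hold, had its nearest peaks 1362 bp from a gene end in KO, 1354 bp in KI and 1352 bp in WT. Mrpl16 had no peak within 36877 bp of its start in KO, 36879 bp in KI and 134431 bp in WT, and at Mrpl53 the nearest peaks lay 6114 bp away in KO, 6054 bp in KI and 6066 bp in WT.

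**Figure D3:**
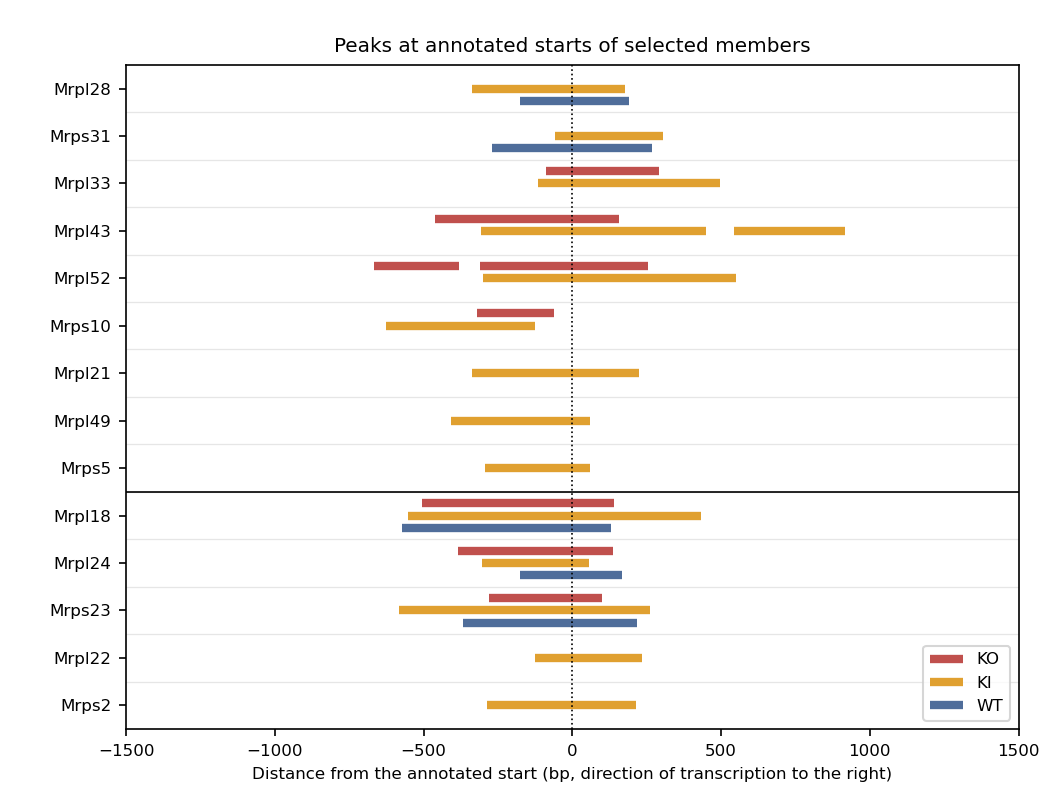
Extent of the peaks (bars) within 1 kb of the annotated start of 14 members in KO, KI and WT, against the distance from that start in bp. Above the line are 9 genes with a gene-end peak in 1 or 2 lists, and below it 5 genes with no gene-end peak, of which Mrpl18, Mrpl24 and Mrps23 have a start peak in all 3 lists.

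By this count of starts, 59 of 69 members had a peak in KO (85.5%), 66 in KI (95.7%) and 56 in WT (81.2%), against 46.6% in KO, 53.8% in KI and 46.7% in WT of the 17492 protein-coding genes in the table. All 3 lists had a start peak at 54 members (78.3%), against 41.9%. Of 56 members with a WT start peak 2 had none in KO, against 9.79%, and 0 had none in KI, against 2.72%. Of 13 members without a WT start peak 5 had one in KO, against 8.36%, and 10 had one in KI, against 15.6%. KO lacked 7 of the 66 start peaks of KI, against 15.6% of all genes in the table with a KI start peak, and none of the 3 members without a KI start peak had one in KO, against 2.62%. The start peaks without a WT counterpart in KO were those of Mrpl33, Mrpl43, Mrpl52, Mrps10 and Mrpl58.

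Mrpl58, the peptidyl-tRNA hydrolase of the large subunit that frees stalled ribosomes, (chr11:115403724-115412674, plus strand) had a gene-end peak in every list but not at the same end. KO had a peak of 512 bp over its start at percentile 27.2 and none at its 3′ end. KI had a start peak of 561 bp at percentile 57.1 and a 3′ peak of 1304 bp at percentile 81.8. WT had only the 3′ peak, 552 bp wide and at percentile 31.1. No end of another protein-coding gene lies within 1 kb of either end of Mrpl58. Counted by gene ends, Mrpl58 was thus present in all lists, and counted by starts it was present in KO and KI and absent from WT.

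**Figure D4:**
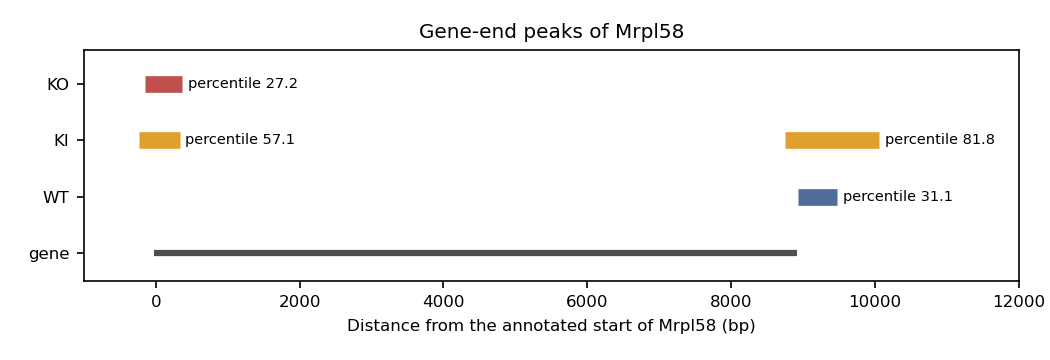
Gene-end peaks of Mrpl58 in KO, KI and WT (bars) against the distance from its annotated start in bp, with the gene as the lowest bar and each peak's percentile within its own list beside it. KO has the start peak, WT the 3′ peak and KI both.

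Peak width gave a measure that the presence of a peak did not use. Members' peaks had a median width of 624 bp in KO, 696 bp in KI and 638 bp in WT. All protein-coding genes with a peak had medians of 684 bp in KO, 762 bp in KI and 739 bp in WT. In 57 members the highest-scoring KO and WT peaks overlapped, with a median KO to WT width ratio of 0.982, and 28 were wider in KO and 29 narrower. Over all protein-coding genes that ratio was 0.943, with 40.6% wider in KO. The KI to WT ratio had a median of 1.05 over 61 members, against 1.08 over all protein-coding genes. KO to KI ratios had a median of 0.829 over 60 members and of 0.861 over all protein-coding genes. In each of the 3 pairs the members' median ratio lay on the same side of 1 as that of all protein-coding genes.

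**Figure D5:**
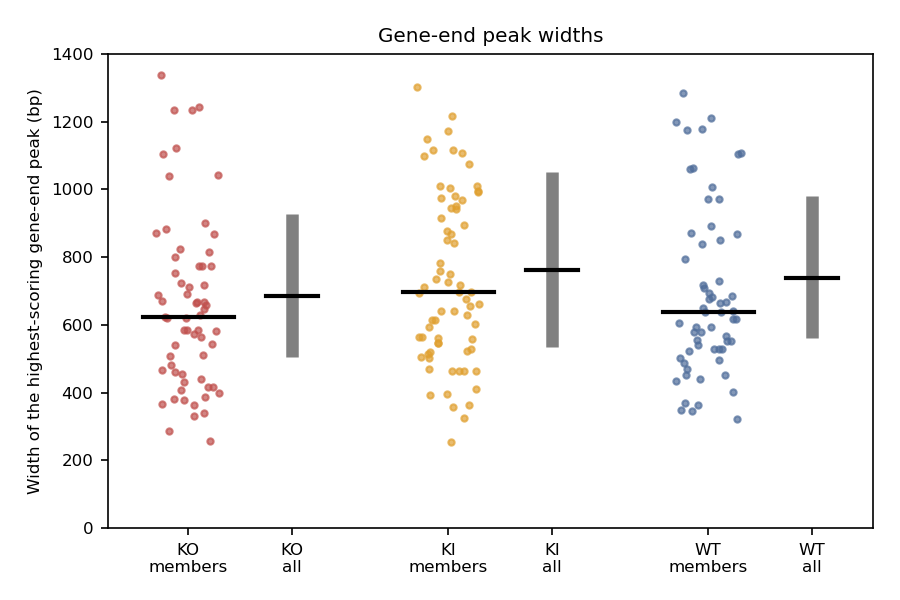
Width in bp of the highest-scoring gene-end peak of each member (points, with the median as a line) in KO, KI and WT, beside the median (line) and the middle 50% (grey bar) of all protein-coding genes in the same list. Members' medians of 624, 696 and 638 bp lie below those of all genes in each list.

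Single members went further. Mrpl51 had a peak of 581 bp in KO, against 1211 bp in WT, a ratio of 0.480, and the KO peak ended 231 bp before the start that the WT peak covered. Mrpl3 had 330 bp in KO and 580 bp in WT, and Mrpl9 had 509 bp in KO and 870 bp in WT. The widest KO peaks relative to WT were those of Mrpl44, with 658 bp in KO and 401 bp in WT, and Mrpl36, with 754 bp in KO and 488 bp in WT. The Mrpl36 peak lay at the outer gene end, next to the complex I gene Ndufs6, and the annotated Mrpl36 start lies 2506 bp inside. For Mrpl2 the highest-scoring peaks, of 1105 bp in KO and 554 bp in WT, lay at opposite ends of the gene and cannot be compared. In KI the widest relative to WT were Mrpl13, with 1148 bp in KI and 350 bp in WT, Mrpl58 at its 3′ end, and Mrpl14, with 995 bp in KI and 469 bp in WT. The narrowest were Mrps25, with 326 bp in KI and 639 bp in WT, Mrpl10, with 411 bp in KI and 709 bp in WT, and Mrps22, with 463 bp in KI and 693 bp in WT.

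Neighbouring genes were a property that the rule did not use. At the 5′ gene end of 35 of 69 members (50.7%) the end of another protein-coding gene lay within 1 kb, against 15.3% of the genes in the promoter table. Counted from the annotated start, 25 of 69 members (36.2%) had a divergent partner, here a start on the other strand from 100 bp of overlap to 1 kb upstream, against 8.66%. Partners include genes of mitochondria, such as Twnk at Mrpl43, the complex I subunit gene Ndufb5 at Mrpl47, 308 bp away, and Sars2, the mitochondrial seryl-tRNA synthetase, at Mrps12, 147 bp away. Others are Tcp1, a chaperonin subunit, at Mrpl18, Psma2, a proteasome subunit, at Mrpl32, and Hira, a histone chaperone, at Mrpl40. Mrpl46 and Mrps11 are each other's partner, with starts 42 bp apart, so that 1 peak counts for both, at percentile 83.7 in KO, 83.0 in KI and 60.9 in WT. In 21 of the 25 cases both genes shared a start peak in all 3 lists. Partners lie within 1 kb and start peaks are counted within 1 kb, so this sharing follows largely from the rule. The pair of Mrpl46 and Mrps11 enters from both sides, and no share over all divergent pairs is set beside the count. A start peak in all 3 lists was found at 84% of members with a divergent partner and at 75% of the other 44.

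Promoter letters were searched for 5 motifs on both strands over the 300 bases of every listed start of a gene, with matches free to overlap. The ETS core CCGGAAG was present at 26 of 69 members (37.7%), against 12.9% of all genes in the table, 21.4% of those with a WT gene-end peak and 36.6% of the cytosolic ribosomal protein genes described below. The core motif of YY1 was present at 5 members (7.25%), Mrpl35, Mrpl37, Mrps11, Mrps18a and Mrps27, against 1.41% of all, 2.72% of those with a WT peak and 4.23% of the cytosolic genes. The palindromic motif of NRF1 was present at 3 members, Mrpl32, Mrpl39 and Mrpl9 (4.35%), against 1.47% of all, 2.43% of those with a WT peak and 2.82% of the cytosolic genes. TATAAA, the TATA box, was present at 7.25% of members, 14.8% of all genes, 8.03% of those with a WT peak and 12.7% of the cytosolic genes. CCAATC was present at 18.8% of members, 20.7% of all genes, 25.6% of those with a WT peak and 15.5% of the cytosolic genes. GC content had a median of 58% in members, 56.3% in all genes, 61.3% in those with a WT peak and 57% in the cytosolic genes. CpG counts had a median of 21 in members, 13 in all genes, 21.5 in those with a WT peak and 21 in the cytosolic genes, so the members stood near other genes with a peak in CpG content. Of the 26 members with an ETS core, 18 had a start peak in all 3 lists (69.2%), against 78.3% of the 69 members. Of the 6 promoters with a peak in exactly 2 lists, 3 held the core, beside 37.7% of the members. They were those of Mrpl33, Mrpl43 and Mrpl52, all open in KO and KI and without a peak in WT. The Mrps10 promoter, open in the same lists, held none. A match is a description of letters and not a site of binding.

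Other genes of mitochondrial translation were counted in the same way. Of 63 genes in 4 lists, 51 had a gene-end peak in KO (81%, 69.6 to 88.8), 58 in KI (92.1%, 82.7 to 96.6) and 57 in WT (90.5%, 80.7 to 95.6). KO lacked 9 of the 57 WT peaks (15.8%, 8.54 to 27.4), against 10.5% of all protein-coding genes with a WT peak and 2 of 61 members (3.28%). KI lacked 3 of the 57 (5.26%), against 3.29% of all protein-coding genes with a WT peak. Of the 6 genes without a WT peak, 3 had one in KO and 4 in KI, against 8.21% in KO and 15.5% in KI of all protein-coding genes without one. Among the 5 ribosomal proteins without the prefix, Chchd1 had a peak in WT alone, at percentile 17.6. Of 26 assembly and rRNA modification factors, 20 had a peak in KO, 25 in KI and 23 in WT. Trub2, a pseudouridine synthase, stood at percentile 71.6 in KI and 61.9 in WT and had no KO peak. Mterf4, Eral1, a chaperone of the small ribosomal RNA, and Ddx28, a helicase, likewise had KI and WT peaks and none in KO. Mrm2, a ribosomal RNA methyltransferase, had KO and KI peaks at percentiles 1.87 and 65.1 and none in WT, and Ngrn one in KI alone. Rcc1l had a peak in no list.

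Of 15 translation factors and mRNA-binding proteins, 14 had a peak in KO, 14 in KI and 13 in WT. Mtif3, an initiation factor, and Mtrf1, a release factor, had KO and KI peaks and none in WT, at percentiles 53.7 and 38.2 in KO. Mtfmt, which formylates the initiator methionine, had a peak in WT alone, at percentile 31.1. Of 17 mitochondrial aminoacyl-tRNA synthetases, 13 had a peak in KO, 15 in KI and 16 in WT. Pars2 had a WT peak at percentile 73.9 and none in KO or KI. Hars2 and Vars2 had peaks in KI and WT and none in KO, and Tars2 had none in any list.

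Cytosolic ribosomal protein genes gave the nearest comparison. They are the 93 protein-coding genes named Rpl or Rps with a digit, without the S6 kinases and with a few further named members. No gene-end peak in any list was found at 12 of them, among them paralogues and genes with pseudogene-style symbols. Such symbols do not occur among the mitochondrial members, so the shares below are not of like sets. Gene-end peaks were present at 67 in KO (72.0%), 81 in KI (87.1%) and 71 in WT (76.3%). KO lacked 7 of 71 WT peaks (9.86%, 4.86 to 19), where it lacked 2 of 61 at mitochondrial ribosomal protein genes. KI lacked none of the 71 (upper bound 5.13%). Of the 22 cytosolic genes without a WT peak, 10 had one in KI (45.5%, 26.9 to 65.3). At the members it was 9 of 17 (52.9%, 31.0 to 73.8). In KO 3 of the 22 had one (13.6%, 4.75 to 33.3), beside 4 of 17 members (23.5%, 9.56 to 47.3). KO lacked 14 of 81 KI peaks (17.3%, 10.6 to 26.9), beside 7 of 70 at the members (10%, 4.93 to 19.2). The intervals of each of these shares overlap between the mitochondrial and cytosolic genes. Whether these genes differ was not tested.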

How the data were processed

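Accessible chromatin was measured by ATAC-seq in 3 libraries of sorted HSC, 1 per genotype, grouped by their titles. Each deposited file lists peaks in 5 columns with no header, 1 list per library. Its last column is a deposited score per peak, taken to be 10 times −log10 of a p-value because the peaks carry names in the style of MACS. The submitters' processing notes name mm10 and CASAVA. Aligner, MACS version, duplicate handling, transposase shift, control and filters were not given in the sources used here. Scores were ranked only within a list, since sequencing depth is unknown and more reads can add weak peaks. The counts at a score of at least 100 are an exception. They apply the same raw cut to all 3 lists and can depend on depth.

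Peaks and protein-coding genes on chromosomes 1 to 19, X and Y were used, with gene ends taken from RefSeq (GRCm38.p6, which mm10 represents). A gene was counted when a peak came within 1000 bp of either end, and its highest-scoring peak gave width and percentile. Starts and strands came from the RefSeq promoter table. Intervals of shares are Wilson 95% intervals, those of medians binomial order-statistic intervals. Assignment was checked on simulated peaks. With 1 library per genotype no test was made. Named are all members with a gene-end peak in fewer than 3 lists, among members with one in all 3 lists the 5 highest and 5 lowest by WT percentile and the 3 largest and 3 smallest width ratios of KO and of KI to WT, and pathway genes with a peak in 1 or 2 lists or none. Mrpl58 and the divergent pairs were described further after their values were seen, and the printed promoters, of members with a peak in 2 lists and of Mrpl17, were chosen likewise. Proteins were classed as bacterial-type or mitochondria-specific from general knowledge. The members and lists were chosen with earlier results of these data known. Python 3.11.15, numpy 2.4.6, pandas 2.3.3, scipy 1.17.1 and matplotlib 3.10.9 were used.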

Additional observations from a re-analysis of the deposited data

How the results depend on the processing

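Windows of 500 and 2500 bp, lists cut to the 17316 highest-scoring peaks, peaks with a score of at least 100, annotated starts alone and the requirement that no peak of the other list overlap (by 1 bp or by 50% of both peaks) were tried as planned. A peak over the 300-base promoter was added after seeing the data. Medians were also taken at equal list size, at both windows and over every gene-end peak once. With a score of at least 100, KO had a peak at 41 members, and KO lacked 6 WT peaks and 21 KI peaks, while 19 members had a KI and no WT peak. At equal list size, KI lacked 2 WT peaks, KO lacked 4 KI peaks, 1 member had a KO and no KI peak, and the median percentile in KI was 68.9. With a 500 bp window, KI lacked 1 WT peak, KO lacked 1 WT peak, and 1 member had a KO and no KI peak. Over the 300-base promoter, 7 members had a KO and no WT peak. The other counts per list and per pair of lists stayed within 1.5 times and the other medians within their intervals. In these cases fewer peaks or a narrower place were counted by construction, and no further cause was tested. Of the 11 members with a peak in 1 or 2 lists, 7 kept their lists at equal size, 10 at 500 bp, 11 at 2500 bp and 1 at a score of at least 100. No paired analysis was possible because each genotype has 1 ATAC-seq library and no test was made. Read depth, which these lists do not give, limits every absence of a weak peak.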

Other observations

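The annotation also holds 6 pseudogenes whose symbol begins with Mrpl or Mrps and a digit: Mrpl23-ps1, Mrpl27-ps, Mrpl48-ps, Mrps36-ps1, Mrps36-ps2 and Mrps36-ps3. None of the 6 had a peak within 1 kb of either end in KO, KI or WT.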
